A study of Mus musculus with 4 samples.

Results

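The genes described here are 7 chaperones and oxidoreductases of the endoplasmic reticulum (ER), taken by symbol from the 24411 genes listed for each library. 3 of them are testis forms, *Clgn*, *Calr3* and *Pdilt*, and 4 are the general forms found in most cells, *Canx*, *Calr*, *Pdia3* and *P4hb*. RNA was measured in GFP-positive germ cells sorted from testes at postnatal day 18 (P18), in 2 control *Zfp541*+/- libraries and 2 libraries labelled *Zfp541* KO, called control 1, control 2, KO 1 and KO 2. In the KO allele exons 1 to 13 of *Zfp541*, which encodes a germ-cell zinc-finger protein, were removed, and the strain is given as a mix of C57BL/6 and CBA. All 4 libraries came from mice with a *Rec8-3xFLAG-HA-p2A-GFP* allele, in which GFP is made from the locus of the meiotic cohesin gene *Rec8*. The allele was heterozygous in 1 control and homozygous in the other control and in both *Zfp541* KO testes, and the labels do not say which control is which. KO mice were made with CRISPR in several lines, 1 of which the study names as its default, and no other line is named for these samples. The labels give each library as 1 testis, so each group holds only 2 samples. The p-values of single genes below rest on the spread within these groups, moderated with that of genes of similar level. Those of ratios rest on regroupings of the 4 libraries.

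In the ER, calnexin (*Canx*) and calreticulin (*Calr*) are lectins that hold newly made glycoproteins, calnexin as a membrane protein and calreticulin in the lumen, and both bring their clients to ERp57 (*Pdia3*), a disulfide isomerase. *P4hb* encodes PDI, the founding member of the disulfide isomerase family. Male germ cells make a second set of the same kinds. Calmegin (*Clgn*) is the testis homolog of calnexin, calsperin (*Calr3*) is that of calreticulin, and *Pdilt* encodes a PDI-like protein that lacks the usual active-site cysteines. These testis forms are known for the maturation of sperm membrane proteins, above all ADAM3, and male mice without *Clgn*, *Calr3* or *Pdilt* are infertile. Calmegin is known to be made from pachytene spermatocytes onward, and PDILT in spermatids.

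Values are TPM, a transcript level corrected for gene length, so that different genes can be compared. Sequencing depth cannot be read from them, and no counting error is given. The summed transcript of the targeted gene was not lower in the libraries labelled KO. *Zfp541* reached 136 TPM in KO 1 and 151 TPM in KO 2, above the 112 TPM of control 1 and the 72.2 TPM of control 2 (log2 FC 0.67, SE 0.28, limma adjusted p = 0.371). A value per gene does not tell reads of the removed exons from reads of any other part of the gene, so it does not test the label. The genotype, and each direction below, is taken from the labels. The meiotic marker *Sycp3* stood between 1108 and 2196 TPM in the 4 libraries. *Hist1h1t*, which encodes the pachytene histone H1t, stood at 1.00 to 2.55 TPM, and 10 pachytene markers that include it summed to 2370 to 6658 TPM. The highest of these were *Ldhc*, at 768 to 3659 TPM, and *Hspa2*, at 761 to 1346 TPM. The libraries were made with an mRNA kit, and its capture of histone transcripts was not tested. The share of pachytene cells in these libraries was not tested either. Markers of other cells differed between the libraries. The summed TPM of 6 macrophage markers was 1388 in control 1 and 19.3 in control 2, against 938 to 1250 in KO, and that of 6 Leydig cell markers was 2910 and 18.0, against 331 to 504. 8 Sertoli cell markers summed to 1083 to 1212 TPM in the controls and 1300 to 1659 TPM in KO, and 5 red blood cell markers to 20.3 to 71.5 and 29.7 to 280.2 TPM. Of the 8 Sertoli cell markers, 3 had both KO libraries above both controls (37.5%, against 38.6% of all genes tested). 4 peritubular myoid cell markers summed to 4.84 to 11.0 and 8.22 to 12.9 TPM. 8 spermatogonial markers summed to 324 TPM in control 1, 980 in control 2, 674 in KO 1 and 485 in KO 2. Single markers did not all follow this sum. *Uchl1* stood at 127 TPM in control 1 and 559 TPM in control 2, but *Kit* at 47.0 and 25.9 TPM. Fold changes are given as log2 FC, the difference of KO minus control on the log2(TPM + 1) scale, with its standard error (SE) and a p adjusted over all genes tested. In limma 0 of the 14512 genes tested passed an FDR of 0.05 (0.0% called). At an unadjusted p under 0.05, 1549 were higher in KO (10.7%) and 542 lower (3.73%). Of the 7 chaperone genes, 6 had a mean of at least 1 TPM and were tested, and *Pdilt* was not.

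By level, *Calr* was the most abundant of the 7 in every library, and *Calr3* and *Pdilt* the least (see the plot of TPM by gene and library). *Calr* ranked 37th and 41st among all genes in control 1 and control 2, and 7th and 10th in KO 1 and KO 2. *Clgn*, *Pdia3*, *Canx* and *P4hb* lay between 254 and 717 TPM, and their order changed from library to library. *Clgn* was the second of the 7 in control 1, the fourth in control 2, the fifth in KO 1 and the third in KO 2. The 7 genes together made up 0.344% and 0.360% of all TPM in the controls and 0.491% and 0.466% in KO. The testis forms held 21.0% and 8.25% of that sum in the controls and 8.13% and 11.4% in KO, nearly all of it from *Clgn*.

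**Figure D1:**
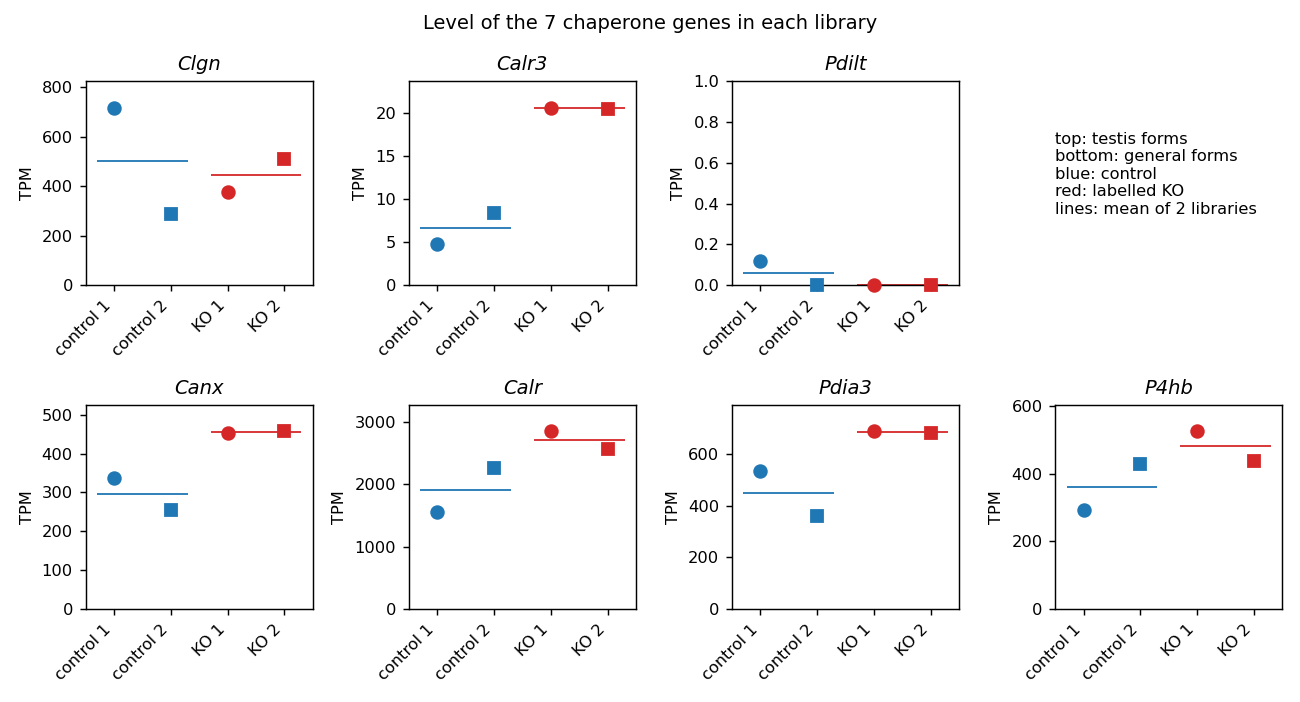
TPM (vertical axis, from 0, own scale per gene) of the 7 genes in control 1, control 2, KO 1 and KO 2, with 1 point per library and a line at the mean of each group. *Calr3*, *Canx*, *Calr*, *Pdia3* and *P4hb* have both KO points above both control points, *Clgn* has its KO points between the controls, and *Pdilt* is at 0 in 3 of the 4 libraries.

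The membrane lectins *Clgn* and *Canx* were compared first. *Clgn* (RefSeq, build GRCm38.p6, as all positions here: chromosome 8, 83389790 to 83428552, forward strand) stood at 717 TPM in control 1, 289 TPM in control 2, 379 TPM in KO 1 and 510 TPM in KO 2. Control 1 was the highest library and control 2 the lowest, with KO 1 and KO 2 between them, so the groups overlapped. Its log2 FC was -0.05 (SE 0.51, 95% interval -1.43 to 1.32, limma adjusted p = 0.971). The controls differed 2.48-fold from each other in this gene, and the sign turned with the control used, to 0.60 without control 1 and -0.71 without control 2. It also turned to 0.16 without KO 1 and to 0.0078 after quantile normalization, and stood at -0.38 after median-ratio scaling. 10 pachytene markers, with *Adam2* among them, summed to 6658 TPM in control 1, 3223 in control 2, 2370 in KO 1 and 3259 in KO 2. Of these markers 4 had both KO libraries below both controls, as did 12.1% of all genes tested, and 1 had both above, as did 38.6%. The 4 were *Pgk2*, *Ccna1*, *Spag6* and *Ldhc*, with a log2 FC of -3.67, -2.50, -1.57 and -1.41, none of them past the FDR. No pachytene marker was listed at 0, and their part in the level of *Clgn* was not tested. In bulk samples, fewer cells of a type and less RNA per cell cannot be told apart.

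*Canx* (chromosome 11, 50293957 to 50325673, reverse strand) stood at 338 TPM in control 1, 254 TPM in control 2, 453 TPM in KO 1 and 457 TPM in KO 2. Both KO libraries lay above both controls, by 1.34-fold to 1.80-fold over the 4 pairs of libraries, and the KO libraries were closer to each other than the controls were. Its log2 FC was 0.63 (SE 0.23, 95% interval 0.0058 to 1.26, limma adjusted p = 0.343), which did not pass the FDR. *Canx* stood further from 0 without control 1 (0.84) than without control 2 (0.43). In both of these fits it passed the FDR (adjusted p = 0.00988 and 0.0471 from limma), but the spread then came from the 2 KO libraries alone, the remaining control being assumed to vary like them, and 38.7% and 15.5% of all genes were called higher as well. Its log2 FC after median-ratio scaling was 0.31. That scaling moved the median log2 FC of all genes from 0.28 to -0.0044, so the 0.63 of *Canx* on TPM as deposited stands against a median of 0.28.

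The lumenal lectins *Calr3* and *Calr* both stood higher in KO. *Calr3* (chromosome 8, 72424176 to 72443819, reverse strand) stood at 4.82 TPM in control 1, 8.40 TPM in control 2, 20.6 TPM in KO 1 and 20.5 TPM in KO 2. The groups did not overlap, and each KO library exceeded each control by 2.44-fold to 4.28-fold. The log2 FC was 1.54 (SE 0.39, 95% interval 0.50 to 2.59, limma adjusted p = 0.310). It did not pass the FDR. *Calr3* kept its sign under every alternative run, between 1.156 with a pseudocount of 5 and 1.89 without control 2, and stood at 1.24 after median-ratio scaling. Without control 1 its log2 FC was 1.198, under the same assumption as for *Canx*. A list of 10 leptotene and zygotene markers stood higher in KO as well, with a summed TPM of 3045 and 3491 in the controls and 5788 and 6139 in KO, and 9 of the 10 had both KO libraries above both controls, against 38.6% of all genes. *Sycp3* was the largest part of this sum, and the study also scored pachytene nuclei by SYCP1 and SYCP3 staining. That staining shows protein, so it does not tell which cells held the listed transcripts. *Meiob*, *Prdm9*, *Dmc1* and *Mei1* of the list also had both KO libraries above both controls, and *Spo11* did not. A shift towards leptotene and zygotene cells was not tested. The part of such cells in the level of *Calr3* was not tested either.

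*Calr* (chromosome 8, 84842088 to 84846931, reverse strand) stood at 1547 TPM in control 1, 2261 TPM in control 2, 2845 TPM in KO 1 and 2556 TPM in KO 2. The groups did not overlap, but KO 2 exceeded control 2 by only 1.13-fold, and control 1 was the lowest library. The log2 FC was 0.53 (SE 0.37, 95% interval -0.47 to 1.52, limma adjusted p = 0.539). *Calr* was at 0.25 without control 1 and 0.80 without control 2. It moved from 0.20 after median-ratio scaling to 0.88 after quantile normalization, a wider range than that of *Canx*.

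For the disulfide isomerases the testis form was at or near 0 TPM. *Pdilt* (chromosome 7, 119486586 to 119529036, reverse strand) was at 0.12 TPM in control 1 and was listed at 0 in control 2, KO 1 and KO 2. With a mean under 1 TPM, *Pdilt* was not in the main fit. In the fit without that filter its log2 FC was -0.08 (SE 0.12, limma adjusted p = 0.789), which rests on the 0.12 TPM of control 1 alone. Its exons overlap those of *Acsm5* and *Gm37518* on the other strand over 4.56% and 8.81% of their bases. The summed TPM of 8 round spermatid markers was 134 in control 1, 55.9 in control 2, 50.1 in KO 1 and 53.4 in KO 2. That of 6 elongating spermatid markers was 11.6, 0.92, 3.54 and 3.88 in the same order. Single round spermatid markers differed. *Acr* stood at 118, 36.5, 18.0 and 21.9 TPM and so held most of the sum in control 1, whereas *Spaca1* stood at 7.34, 13.9, 27.0 and 26.6 TPM. The part of spermatids in the level of *Pdilt* was not tested. *Prm1*, *Prm2*, *Tnp1*, *Tnp2* and *Odf1*, which encode proteins of the sperm nucleus and tail, were each listed at 0 in at least 1 library.

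*Pdia3* (chromosome 2, 121413902 to 121438687, forward strand) stood at 535 TPM in control 1, 362 TPM in control 2, 689 TPM in KO 1 and 681 TPM in KO 2. The groups did not overlap, and the 2 KO libraries differed far less than the 2 controls. Its log2 FC was 0.64 (SE 0.28, 95% interval -0.12 to 1.39, limma adjusted p = 0.383). It was 0.92 without control 1 and 0.36 without control 2. *P4hb* (chromosome 11, 120560298 to 120573253, reverse strand) stood at 294 TPM in control 1, 430 TPM in control 2, 526 TPM in KO 1 and 437 TPM in KO 2. KO 2 exceeded control 2 by only 1.02-fold, so the groups were separate by a narrow margin. Its log2 FC was 0.43 (SE 0.28, 95% interval -0.33 to 1.19, limma adjusted p = 0.517). It was 0.16 without control 1, 0.70 without control 2 and 0.10 after median-ratio scaling.

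The 2 control libraries set these genes apart in 2 ways. *Canx* and *Pdia3* were higher in control 1 than in control 2, by 1.33-fold and 1.48-fold, as was *Clgn*. *Calr*, *P4hb* and *Calr3* were lower in control 1, at 0.684, 0.684 and 0.574 times the level of control 2.

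**Figure D2:**
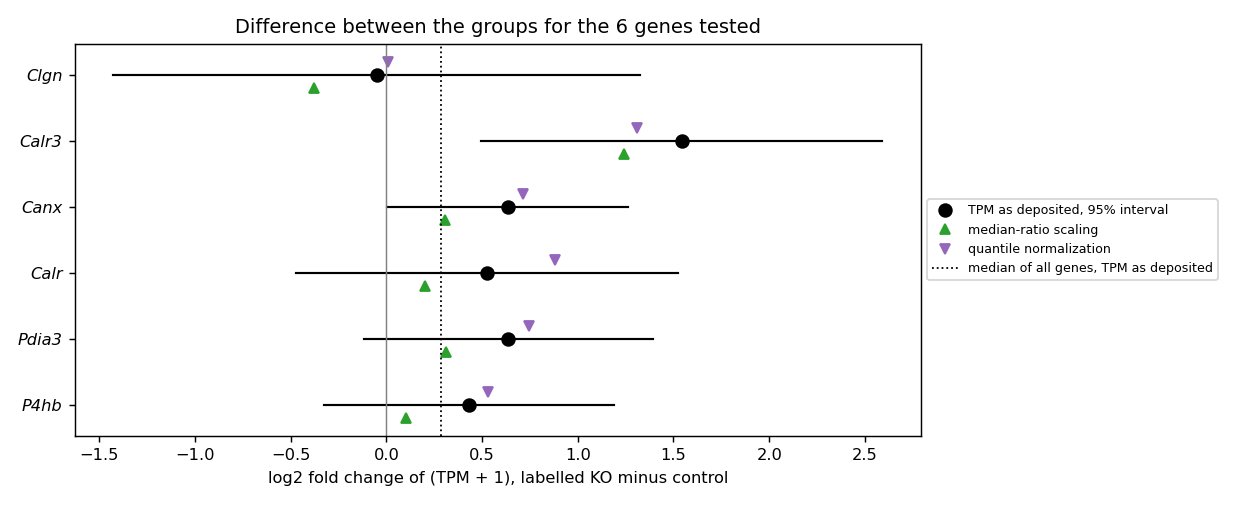
Log2 fold change of TPM + 1 (horizontal axis, labelled KO minus control) for the 6 genes tested. Black points with lines are TPM as deposited with the 95% interval from limma, green and purple triangles are 2 other scalings, and the dotted line is the median of all genes (0.28). *Calr3* lies furthest from 0 under each scaling, and *Clgn* lies on both sides of 0.

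All 4 general forms had both KO libraries above both controls, as did 38.6% of all genes tested. Their log2 FC values ran from 0.43 to 0.64 with a median of 0.58, against 0.28 for all genes. After median-ratio scaling the 4 stayed above 0 with a median of 0.25, and after quantile normalization with a median of 0.73. Of the 6 genes tested, *Calr3* and *Canx* had an unadjusted p under 0.05, both higher in KO, as did 10.7% of all genes. None of the 6 passed the FDR.

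Each testis form was then set against its general counterpart within the same library, where a scaling by 1 factor per library drops out. *Clgn* was at 2.12 times the level of *Canx* in control 1, 1.14 times in control 2, 0.836 times in KO 1 and 1.11 times in KO 2. Thus *Clgn* exceeded *Canx* in 3 libraries and was below it in KO 1. The log2 ratio of *Clgn* to *Canx* was 0.63 ± 0.64 for the 2 controls and -0.05 ± 0.29 for the 2 KO libraries (mean ± SD). The groups were separate only by the gap between control 2 (0.18) and KO 2 (0.16), and the difference of -0.68 lay between -1.13 without control 2 and -0.24 without control 1.

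In the other lectin pair *Calr* exceeded *Calr3* 321-fold and 269-fold in the controls and 138-fold and 125-fold in KO, so *Calr3* made up 0.311% and 0.370% of the calreticulin transcripts in the controls and 0.720% and 0.796% in KO. The log2 ratio was -7.98 ± 0.10 for the 2 controls and -6.97 ± 0.10 for the 2 KO libraries (mean ± SD). The difference of 1.02 was larger than the spread within either group, and lay between 0.94 and 1.09 with any 1 library left out. It was 0.63 with a pseudocount of 5, and after quantile normalization it was 0.43 with an exact permutation p of 1.0, so that the groups overlapped. The difference for *Clgn* to *Canx* was -0.71 after quantile normalization, where the groups overlapped as well (exact permutation p = 0.667). For both pairs the two-sided exact permutation p was 0.333, which is the smallest that 4 samples can give (adjusted p = 0.333 over 4 pairs), so no such ratio could pass a threshold of 0.05. The other 2 pairs set *Pdilt* against *Pdia3* and *P4hb*. As *Pdilt* was listed at 0 in 3 libraries, their ratios follow the general forms alone and are not described.

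**Figure D3:**
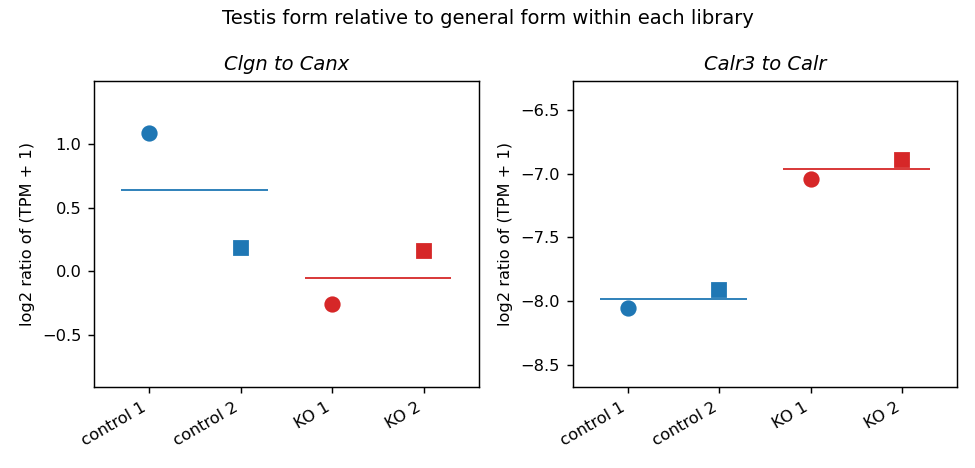
Log2 ratio of TPM + 1 (vertical axis) of *Clgn* to *Canx* and of *Calr3* to *Calr* in each library, with a line at the mean of each group, both panels spanning the same number of log2 units. The *Calr3* to *Calr* ratio is near -8 in both controls and near -7 in both KO libraries, whereas for *Clgn* to *Canx* control 1 stands apart at 1.08.

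The start regions of these genes were read from RefSeq (build GRCm38.p6), in which 6 of the 7 had an entry and *Clgn* did not. They were searched on both strands, over the 250 bases before each start, for the ER stress response element ERSE (CCAAT and CCACG with 9 bases between them), through which the stress factors ATF6 and XBP1 are known to raise ER chaperone genes, for ERSE-II (ATTGG and CCACG with 1 base between them), for the word TGACGTGG (UPRE), for the cAMP response element TGACGTCA, and for 4 words bound by MYB factors (CAACGG or CAACTG and, with another first letter, TAACGG or TAACTG). ERSE was found in *Canx*, 145 bases before the start, and in *Calr*, 162 bases before the start on the other strand. It is held by 0.113% of 32851 such regions. A MYB word was found once each in *Calr* and *Pdia3*, and 23.7% of all regions hold one. The word in *Pdia3* lay 71 bases before its RefSeq start (121413902), but past the first base annotated for that gene in GENCODE (121413775). For *Calr3* as well, the GENCODE annotation begins (72443870) ahead of the RefSeq start at 72443778. Part of both windows is thus annotated as transcribed. No match to ERSE-II, UPRE or the cAMP response element (held by 0.0304%, 0.563% and 1.55% of all regions) was found in the 6 genes, and *Calr3*, at either of its 2 starts, *Pdilt* and *P4hb* had no match at all in this window. The regions of *Canx* (chr11:50325674-50325923, reverse strand) and *Calr* (chr8:84846935-84847181, reverse strand) are given because they hold the ERSE, and that of *Calr3* (chr8:72443871-72444028, reverse strand) because it is the testis counterpart of *Calr*. The stretches stop before the first annotated transcript base, and capitals mark the fixed letters of ERSE and, in *Calr*, the MYB word.
Canx: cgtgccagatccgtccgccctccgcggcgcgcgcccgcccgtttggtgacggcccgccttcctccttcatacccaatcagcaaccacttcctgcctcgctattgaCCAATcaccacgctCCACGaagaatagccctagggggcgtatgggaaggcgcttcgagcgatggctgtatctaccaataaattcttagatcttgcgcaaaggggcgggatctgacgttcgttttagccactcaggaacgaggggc
Calr: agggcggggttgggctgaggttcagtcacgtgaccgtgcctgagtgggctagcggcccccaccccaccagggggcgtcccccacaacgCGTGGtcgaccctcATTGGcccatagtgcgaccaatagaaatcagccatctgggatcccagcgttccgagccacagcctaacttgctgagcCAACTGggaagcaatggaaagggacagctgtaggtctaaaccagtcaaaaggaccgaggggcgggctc
Calr3: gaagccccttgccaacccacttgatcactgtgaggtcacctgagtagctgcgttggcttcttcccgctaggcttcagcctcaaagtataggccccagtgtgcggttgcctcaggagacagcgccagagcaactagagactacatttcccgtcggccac
A match is a description of letters, and no binding was measured in these libraries.

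Of the genes that resembled the testis forms, the nearest by root mean square difference of centred log2(TPM + 1) over the 4 libraries were taken from 14486 genes. For *Calr3* they were *Neto2* (difference 0.019), *Cpeb1* (0.047), a regulator of mRNA translation in germ cells, and *Elavl2* (0.048), an RNA-binding protein gene. *Neto2* stood at 8.81, 15.0, 36.2 and 34.7 TPM in control 1, control 2, KO 1 and KO 2. For *Clgn* they were *Mroh4* (0.032), the transcription factor gene *Sox6* (0.038) and *Elf2* (0.039), an ETS factor gene. *Mroh4* stood at 455, 189, 251 and 343 TPM in the same order. With 4 libraries such likeness has no test.

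The rest of the ER folding pathway was read from 7 lists of 99 genes, of which 92 were tested. None passed the FDR, 73 had a log2 FC above 0 (79.3%, against 69.0% of all genes), and 44 had both KO libraries above both controls (47.8%, against 38.6%), while 6 had both below (12.1% of all genes did). Their median was 0.32, against 0.28 for all genes, and after median-ratio scaling 49 of the 92 were above 0 with a median of 0.02. The 4 general members, with a median of 0.58, thus stood above the median of the lists that surround them.

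Among the 14 ER Hsp70 and Hsp90 chaperones and their partners, 11 had both KO libraries above both controls (78.6%, against 38.6% of all genes). In 2 both KO libraries lay below (12.1% of all genes did), and the median was 0.46. After median-ratio scaling the median was 0.14, with 9 of the 14 above 0. The largest change in size among the 14 genes was that of *Hspa5*, which encodes BiP, the Hsp70 of the ER. *Hspa5* stood at 1223 TPM in control 1, 1472 TPM in control 2, 2444 TPM in KO 1 and 2108 TPM in KO 2 (log2 FC 0.76, SE 0.31, limma adjusted p = 0.367). Its J-domain partner *Dnajc1* had 24.8, 13.0, 28.7 and 31.3 TPM in the same order, with a log2 FC of 0.70 that was 1.14 without control 1 and 0.26 without control 2. *Sec63*, another, had 65.7, 30.3, 70.2 and 66.1 TPM, with a log2 FC of 0.60 that was 1.14 without control 1 and 0.05 without control 2, so that KO stood apart from control 2 but hardly from control 1. The 14 tested genes of the disulfide isomerase family outside the 7 members had a median of 0.39. Of these, 9 had both KO libraries above both controls (64.3%, against 38.6% of all genes). Their median after median-ratio scaling was 0.14, with 9 of the 14 above 0. The transmembrane thioredoxin gene *Tmx1* stood at 85.1, 68.2, 149 and 167 TPM in control 1, control 2, KO 1 and KO 2, and *Tmx4* at 45.9, 45.9, 87.4 and 81.5 TPM. Their log2 FC was 1.04 and 0.87 (limma adjusted p = 0.310 for both). *Casq1*, a calcium-storage protein gene of muscle with thioredoxin-like folds, had the largest log2 FC of that list, 1.43, at a low level of 0 to 3.04 TPM, and its value was 0.49 with a pseudocount of 5 and 3.21 with a pseudocount of 0.1.

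Among 10 genes of ER oxidation 4 had both KO libraries above both controls, a share of 40.0% that is near the 38.6% of all genes. Their median was 0.25, and it turned to -0.073 after median-ratio scaling, with 4 of 10 above 0. *Ero1l*, the oxidase gene whose product recharges PDI, stood at 29.7 and 28.1 TPM in control 1 and 2, and at 55.2 and 53.3 TPM in KO 1 and 2 (log2 FC 0.88, SE 0.20, limma adjusted p = 0.310). *Selt*, a selenoprotein gene, and *Vkorc1l1*, a paralog of the vitamin K epoxide reductase gene, had a log2 FC of 0.68 and 0.63, which were 0.41 and 0.39 without control 2. The 14 genes that trim or sort glycoproteins around calnexin and calreticulin had a median of 0.40, with 7 of 14 separate and higher (against 38.6% of all genes). After median-ratio scaling that median was 0.074, with 8 of the 14 above 0. On TPM as deposited the largest were *Uggt2* and *Uggt1*, the sensors that return unfolded glycoproteins to the lectins, at 0.88 and 0.84. *Edem1*, a mannosidase-like protein gene of degradation, was at 0.68. Without control 2 *Uggt2* was at 0.21 and *Edem1* at 0.27. *Uggt1* had 21.4 TPM in control 1, 17.8 in control 2, 38.2 in KO 1 and 33.6 in KO 2. *Uggt2* had 43.9, 16.8, 45.2 and 57.5 TPM in that order, so control 2 stood well below the other 3 libraries.

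The remaining ER lists stood close to the median of all genes or below it. The 8 prolyl isomerases had a median of 0.11, with 1 separate and higher (12.5%, against 38.6% of all genes). This median turned to -0.23 without control 2, -0.18 after median-ratio scaling and -0.090 after quantile normalization. The cyclophilin gene *Ppic* and the FK506-binding protein genes *Fkbp2* and *Fkbp14* had a log2 FC of 0.46, 0.35 and 0.33. *Ppic* had 20.6 TPM in control 1 and 0.47 TPM in control 2, and its log2 FC turned to -1.48 without control 2. The 15 tested genes of ER-associated degradation had a median of 0.22, which turned to -0.13 without control 2, -0.10 after median-ratio scaling and -0.041 after quantile normalization. *Sel1l2*, a testis paralog of the degradation scaffold *Sel1l*, lay lowest, with 16.3 TPM in control 1, 3.20 in control 2, 0.31 in KO 1 and 1.08 in KO 2 (log2 FC -2.37, SE 0.82, limma adjusted p = 0.332), and its log2 FC was -1.35 without control 1 and -3.39 without control 2. *Vimp*, which encodes selenoprotein S, and the derlin gene *Derl3* had a log2 FC of -0.75 and 0.55, and *Vimp* was at -0.41 and *Derl3* at -0.038 without control 1. The 17 tested sensors and factors of the unfolded protein response had a median of 0.32, which was 0.027 after median-ratio scaling and 0.13 without control 2. *Eif2ak3*, which encodes the sensor kinase PERK, had a log2 FC of 1.00 and *Ppp1r15b*, a phosphatase subunit gene that opposes PERK, 0.73 (0.45 without control 2), whereas *Creb3l4*, a membrane-bound CREB factor gene of spermatids, had -0.98, with 10.3 TPM in control 1, 8.23 in control 2, 3.75 in KO 1 and 4.66 in KO 2.

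**Figure D4:**
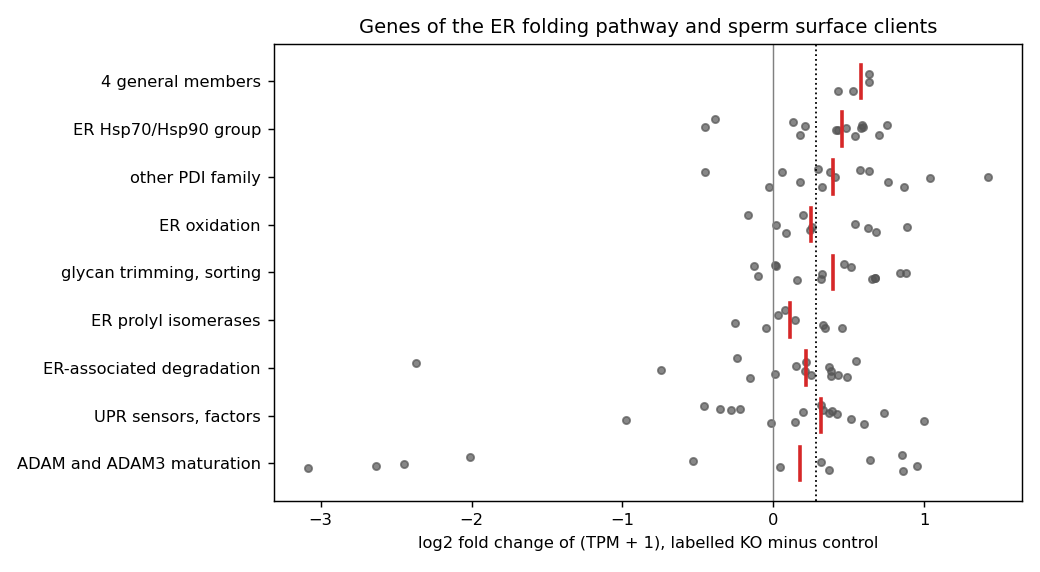
Log2 fold change of TPM + 1 (horizontal axis, labelled KO minus control) for the 4 general members and for each tested gene of the 8 pathway lists, 1 point per gene, with a red bar at each list's median and a dotted line at the median of all genes (0.28). The general members lie between 0.43 and 0.64, and the list with the ADAM genes reaches down to -3.09.

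The sperm surface ADAM proteins, which include clients of the testis forms, were listed with the factors needed for ADAM3 maturation, which need not be clients. Of 14 genes 12 were tested. 5 were separate and higher in KO, a share of 41.7% that is near the 38.6% of all genes, while 4 of the 12 were separate and lower (against 12.1% of all genes). Their median of 0.18 turned to -0.16 without control 2, -0.11 after median-ratio scaling, -0.093 after quantile normalization and -0.24 with a filter of 5 TPM. *Adam3*, whose protein depends on all of the testis forms, stood at 283 TPM in control 1, 16.9 in control 2, 4.99 in KO 1 and 10.8 in KO 2. Both KO libraries lay below both controls, and the controls differed far more from each other than control 2 did from KO (log2 FC -3.09, SE 1.42, limma adjusted p = 0.396). It was -5.08 without control 2 and -1.09 without control 1. *Adam1b* had 54.5, 6.86, 1.97 and 2.83 TPM in that order, with a log2 FC of -2.63 (limma adjusted p = 0.360) that was -1.22 without control 1 and -4.04 without control 2. *Adam2*, whose product pairs with the ADAM1 proteins, had 389, 165, 157 and 196 TPM, where the groups overlapped, and its log2 FC of -0.53 turned to 0.084 without control 1. *Adam1a* had 3.21, 1.23, 3.54 and 5.78 TPM and a log2 FC of 0.86, which was 0.40 without control 2. *Cmtm2a*, whose loss together with *Cmtm2b* is known to remove ADAM3 from sperm, had 527, 137.6, 36.5 and 64.8 TPM (log2 FC -2.45, SE 0.73, limma adjusted p = 0.319), and its log2 FC was -1.48 without control 1 and -3.41 without control 2. *Calr3* was thus higher in KO while *Adam3*, *Adam1b* and *Cmtm2a* were lower, and *Clgn* was not separate, with none of these genes past the FDR.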

How the data were processed

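RNA of sorted GFP-positive germ cells was measured in 2 control and 2 *Zfp541* KO samples, grouped by their labels. The authors trimmed reads with Trim Galore 0.5.0 (cutadapt 1.16), aligned them to UCSC mm10 with STAR 2.6.0a and deposited TPM per gene and sample from RSEM 1.3.1. TPM has 1 total for all libraries, so depth is lost. The test of RSEM named in the methods needs estimated counts and was not repeated. In 27 rows of each file a date stands in place of a symbol, and 2 listed genes (*Sep15* and *Hm13*) were not found by symbol. The 14512 genes averaging 1 TPM or more were fitted in R 4.3.3 with limma 3.58.1 on log2(TPM + 1) by group, the variance following the mean, and p-values were adjusted by Benjamini-Hochberg (FDR 0.05). The scale understates changes of low genes. The fit was tested on simulated data, where its estimates were unbiased but the recovery first required was not reached, so the requirement was moved to a larger change. There the fit did not recover changes as small as those of the members, so a count of 0 past the FDR does not show that genes did not change. Within-library ratios were compared by exact permutation. The 7 members, the pathway lists and the markers were chosen with earlier results of these data known. Named genes are the members, *Zfp541*, up to 3 genes per pathway list with the largest change in size, *Adam1a*, *Adam1b*, *Adam2* and *Adam3*, and the 3 genes most like each tested testis form. *Cmtm2a* falls under the same rule, and marker genes are named from the marker lists. Gene positions and promoters are from RefSeq, exon overlaps from GENCODE vM21. Alternatives covered the pseudocount, filter, scaling, trend, replicate block, FDR and each library left out. Strand-specific counting is not given in the sources used here, and exons of *Pdilt* and *Pdia3* overlap those of genes on the other strand over at most 8.81% of their bases. Deviations from the group means correlated at -0.16 between samples of the same number.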

Additional observations from a re-analysis of the deposited data

How the results depend on the processing

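Under the alternatives that kept all 4 libraries, no gene passed an FDR of 0.05, except when control 1 was blocked with KO 2 and control 2 with KO 1 (7 genes higher, 80 lower). This crossed block was chosen after seeing the data, as samples of the same number correlated at -0.16. The labels give both groups the numbers 1 and 2 without saying that they pair animals. Blocking on the replicate number left 0 genes higher and 0 lower, and the adjusted p of the 6 members ranged from 0.629 (*Calr3*) to 0.984 (*Clgn*). Leaving out each library in turn gave 0 to 5610 genes higher and 0 to 1875 lower (5610 and 1375 without control 1, 2248 and 1875 without control 2, 0 without either KO library), where the spread came from the 1 group left with a pair of libraries. Log2 fold changes ranged from -0.71 to 0.60 for *Clgn*, 1.198 to 1.89 for *Calr3*, 0.43 to 0.84 for *Canx*, 0.25 to 0.80 for *Calr*, 0.36 to 0.92 for *Pdia3* and 0.16 to 0.70 for *P4hb*. *Clgn* changed sign at 0.0078 with quantile normalization, and *Ppic* at -0.013 with a pseudocount of 5. With a library left out, *Ppic* ranged from -1.48 to 2.40, *Fkbp14* from -0.11 to 0.78, *Derl3* from -0.038 to 1.14, *Adam2* from -1.14 to 0.084 and *Zfp541* from 0.35 to 0.98. Ratios within a library kept their sign, but after quantile normalization *Calr3* to *Calr* was 0.43 (exact permutation p = 1.0) and *Clgn* to *Canx* -0.71 (exact permutation p = 0.667), and the groups overlapped in both pairs. The causes of these changes were not tested. Depth is unknown, so *Pdilt*, listed at 0 in 3 libraries, has no upper limit.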
